A study of Rattus norvegicus with 3 samples.

Results

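The genes described here are 10 that mark the unfolded protein response and the integrated stress response: Ddit3, Atf4, Atf5, Atf6, Xbp1, Ern1, Eif2ak3, Ppp1r15a, Trib3 and Herpud1. They were chosen by symbol, with earlier results of these data known. All 10 of 10 were found among the 16629 genes and unnamed regions of the deposited table. The data come from 3 libraries of polyadenylated RNA, all from adult rats of the Sprague-Dawley strain kept on 14 h of light and 10 h of dark. One came from pineal glands at zeitgeber time 7 (7 h after lights on, called day), one from pineal glands at zeitgeber time 19 (night, in the dark). The other came, also at zeitgeber time 7, from a pool that combined the same amount of RNA from each of 15 tissues outside the gland: liver, lung, heart, kidney, adrenal gland, small intestine, skeletal muscle, pituitary, retina, spinal cord and 5 brain regions (cerebellum, hindbrain, midbrain, hypothalamus and cortex). The labels name no genotype or agent, and do not give the number of animals behind a library. Each group is 1 library, run in its own sequencing lane, so group and library cannot be told apart, no value below has a replicate check and no p-value was computed.

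Proteins that enter the endoplasmic reticulum (ER) are folded there by chaperones, and unfolded protein activates sensors in the ER membrane. Ern1 (IRE1) is a kinase and nuclease that removes a short intron from Xbp1 mRNA, Atf6 is a membrane-bound transcription factor released by proteolysis, and Eif2ak3 (PERK) is a kinase that phosphorylates the translation factor eIF2. Phosphorylated eIF2 lowers protein synthesis in general but raises translation of Atf4, Atf5, Ddit3 and Ppp1r15a mRNA, a step shared with kinases that sense other stresses. The pineal gland makes melatonin at night, when noradrenaline from sympathetic nerves raises cAMP in pinealocytes.

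The unit is FPKM, the number of sequenced fragments divided by transcript length and by the size of the library, so genes can be ordered within a library. Ratios are log2 ratios of FPKM + 1, which understate the fold of genes with low values, and "at least 2-fold" refers to that scale. Genes under 1 FPKM in both libraries of a comparison were left out of it. The read depth is not given. From the smallest steps between values of single-exon receptor genes, 1 FPKM on 1 kb of transcript stood for about 8.74 fragments by day, 5.29 by night and 9.73 in the mixed tissues, the night figure resting on 4 gene models. Counting bounds below are 95% bounds for a transcript of 1 kb. They are wider for shorter transcripts and cover counting error only.

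In the night library Ppp1r15a, Ddit3 and Xbp1 were at least 2-fold above their day values, 0 of the 10 genes were 2-fold lower, and 7 lay within 2-fold. Among the 9826 genes and regions that entered this comparison, 4.18% passed 2-fold on the night side and 2.11% on the day side. The 10 genes were not chosen blind to these data, so setting them beside all genes is a description and not a test. The median log2 ratio of the 10 genes was 0.48, beside -0.11 for all genes compared. Among related genes, Hspa5 (BiP) was the 1 of 20 ER folding genes at least 2-fold higher by night, and 4 of 24 ATF4-linked genes were higher and 1 lower, with list medians of 0.11 and -0.07. The sensors Ern1, Eif2ak3 and Atf6 and the factor Atf4 differed by less than 1.25-fold.

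Ppp1r15a encodes GADD34, the inducible subunit that directs protein phosphatase 1 to eIF2 and so ends the block on translation. It stood at 5.50 FPKM by day, 27.1 by night and 8.61 in the mixed tissues (chr1:95994023-95997080, rn4). Night exceeded day 4.92-fold in FPKM (log2 2.11 on the FPKM + 1 scale), rank 111 of 9826 from the top, and the counting bounds of the FPKM ratio ran from log2 1.82 to 2.80. The night library was thus the high one, and the counting bounds of the level by night (22.8 to 31.9) did not overlap those by day (4.06 to 7.30).

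Ddit3 encodes CHOP, a C/EBP-family transcription factor that acts late in the response and is tied to cell death. It stood at 30.7 FPKM by day, 90.0 by night and 19.5 in the mixed tissues (chr7:67247749-67252571, rn4). The night value was 2.93 times the day value (log2 1.52, bounds 1.33 to 1.77, rank 209). These values sum 2 RefSeq entries at the same position, of which one carried 30.7, 88.8 and 18.9 FPKM by day, by night and in the mixed tissues and the other 0, 1.21 and 0.579. Nearly all of the signal was therefore assigned to 1 entry, and the deposited values do not show how the software divided shared fragments.

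Xbp1 encodes the transcription factor whose mRNA Ern1 splices. Its level was 30.3 FPKM by day, 78.5 by night and 55.0 in the mixed tissues (chr14:86151910-86156975, rn4). Night was 2.59 times day (log2 1.35, bounds 1.15 to 1.60, rank 256). The table holds 1 entry for Xbp1, so its spliced and unspliced forms cannot be told apart.

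**Figure D1:**
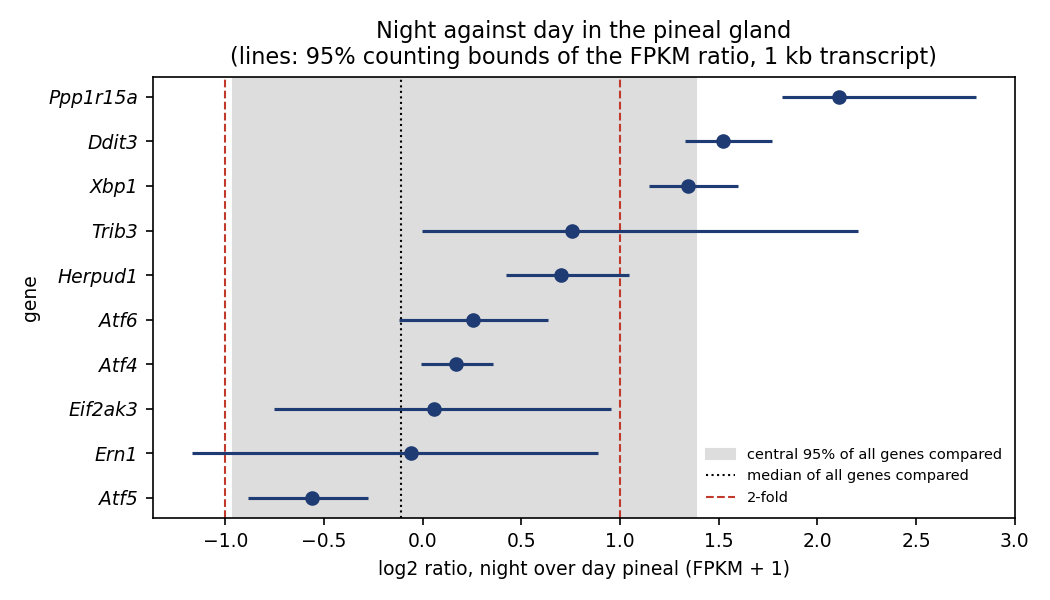
Points are the log2 ratios of FPKM + 1, night over day pineal library, for the 10 genes (1 library each), and horizontal lines are the 95% counting bounds of the FPKM ratio for a 1 kb transcript. Ppp1r15a (2.11), Ddit3 (1.52) and Xbp1 (1.35) lie beyond the dashed 2-fold line at the right, and the shaded band holds the central 95% of all 9826 genes compared.

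No motif searched was present in the reference promoters of all 3 genes that were at least 2-fold higher by night. Only exact matches were counted, and forms that differ by a base were not searched. RefSeq windows on GRCr8, from 250 bases before to 50 bases after the gene start, were on hand for 8 of the 10 genes, not for Atf6 and Ern1. The motifs, searched on both strands, were the ER stress element (CCAAT and CCACG with 9 bases of any kind between them), its second form (ATTGG and CCACG with 1 base between), the unfolded protein response element core TGACGTGG, the cAMP response element TGACGTCA, its core TGACG, which the cAMP element and the unfolded protein element both contain, and the C/EBP-ATF composite TGATGNAAN, where N is any base. The 250 bases before the start are printed 5′ to 3′ in the direction of the gene, to show which of these letters lie before the 3 genes past 2-fold by night, before Hspa5, and before Herpud1, which did not pass; capitals mark the cAMP response element in Ppp1r15a, the ER stress element in Xbp1 and Hspa5 and its second form in Herpud1, and the Ddit3 stretch held no match.
Ppp1r15a: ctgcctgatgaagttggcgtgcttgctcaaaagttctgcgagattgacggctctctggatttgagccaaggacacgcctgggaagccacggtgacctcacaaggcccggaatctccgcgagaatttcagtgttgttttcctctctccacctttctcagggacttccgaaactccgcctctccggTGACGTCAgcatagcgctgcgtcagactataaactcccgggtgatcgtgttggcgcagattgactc
Xbp1: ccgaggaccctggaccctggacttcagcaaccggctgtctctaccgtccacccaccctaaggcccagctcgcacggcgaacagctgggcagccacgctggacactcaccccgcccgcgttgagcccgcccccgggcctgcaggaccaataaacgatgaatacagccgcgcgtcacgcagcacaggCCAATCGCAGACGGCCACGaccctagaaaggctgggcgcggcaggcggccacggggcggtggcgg
Hspa5: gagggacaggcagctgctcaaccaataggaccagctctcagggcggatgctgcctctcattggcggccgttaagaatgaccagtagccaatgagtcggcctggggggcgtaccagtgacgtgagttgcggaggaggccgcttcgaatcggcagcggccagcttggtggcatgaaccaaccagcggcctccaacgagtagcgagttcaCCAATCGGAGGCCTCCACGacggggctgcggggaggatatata
Herpud1: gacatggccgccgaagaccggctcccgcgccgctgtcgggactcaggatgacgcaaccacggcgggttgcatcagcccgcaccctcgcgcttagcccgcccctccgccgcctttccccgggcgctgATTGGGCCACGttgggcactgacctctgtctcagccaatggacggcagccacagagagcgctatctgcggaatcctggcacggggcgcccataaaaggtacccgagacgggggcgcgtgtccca
Ddit3: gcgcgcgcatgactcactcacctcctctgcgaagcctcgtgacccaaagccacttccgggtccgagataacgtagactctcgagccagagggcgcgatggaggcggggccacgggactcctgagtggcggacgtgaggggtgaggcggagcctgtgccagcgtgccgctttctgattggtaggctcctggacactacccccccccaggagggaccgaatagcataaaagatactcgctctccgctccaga

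These stretches lie at chr1:105139597-105139846 (minus strand, Ppp1r15a), chr14:84604373-84604622 (plus strand, Xbp1), chr3:38452766-38453015 (plus strand, Hspa5), chr19:10614708-10614957 (minus strand, Herpud1) and chr7:65001445-65001694 (plus strand, Ddit3) of GRCr8. The cAMP response element of Ppp1r15a begins 66 bases before the start, and this motif was found in 1 of the 8 windows, beside 1.83% of all 33469 rat windows. The ER stress element began 65 bases before the start of Xbp1 and 43 before that of Hspa5. It was held by 1 of the 8 windows and by 0.0657% of all windows. Its second form, 124 bases before the start of Herpud1, was in 1 of the 8 and in 0.0508% of all. The composite was in 2 of the 8, Trib3 and Herpud1, and in 3.97% of all, the core TGACG in 5 of the 8 and in 21.2% of all, and the unfolded protein element core in 0 of the 8 and in 0.595% of all. A match describes letters in the reference and is not evidence of binding in these glands. The lack of a match in Ddit3 covers exact letters only, and does not show that its promoter lacks an ER stress element.

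Trib3 and Herpud1 were the next 2 genes in order of the night over day ratio. Herpud1 encodes an ER membrane protein of the degradation machinery for misfolded proteins. It stood at 19.7 FPKM by day, 32.6 by night and 33.3 in the mixed tissues (chr19:11036567-11046914, rn4), a night over day log2 ratio of 0.70 with counting bounds from 0.42 to 1.05. Trib3, a pseudokinase induced by ATF4 and CHOP, was the lowest of the 10 by day and in the mixed tissues, at 1.59 FPKM by day, 3.37 by night and 1.43 in the mixed tissues (chr3:142664651-142670135, rn4). Its log2 ratio was 0.76 on the FPKM + 1 scale and the FPKM ratio was 2.13, and it passed 2-fold with a pseudocount of 0.1 (log2 1.04). The counting bounds, log2 -0.0021 to 2.21, include an equal level in both libraries.

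Among the translationally controlled factors, Atf4 was abundant in all 3 libraries: 69.2 FPKM by day, 78.0 by night and 102 in the mixed tissues (chr7:118537718-118538994, rn4). Night and day were 1.13-fold apart (log2 0.17, bounds -0.01 to 0.36). Atf5, a related basic leucine zipper factor, had the lowest night over day ratio of the 10, with 36.2 FPKM by day, 24.2 by night and 52.8 in the mixed tissues (chr1:95284511-95286786, rn4; log2 -0.56, bounds -0.89 to -0.28). Atf5 lies 707 kb from Ppp1r15a on chromosome 1 of rn4, and the night value of the one was below and that of the other above its day value. FPKM measures mRNA, so the translation of these genes was not measured.

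The 3 sensors had low or middling levels that were close between the pineal libraries. Atf6 stood at 16.2 FPKM by day, 19.5 by night and 11.9 in the mixed tissues (chr13:86543773-86718970, rn4; night over day log2 0.25, bounds -0.12 to 0.64). Eif2ak3 stood at 3.70, 3.88 and 5.69 (chr4:104016940-104078261, rn4; log2 0.06, bounds -0.75 to 0.96), and Ern1 at 2.86, 2.70 and 3.18 (chr10:95794488-95855895, rn4; log2 -0.06, bounds -1.17 to 0.89). For the kinases the bounds are wide, so a difference close to 2-fold would not have been resolved on 1 kb of transcript.

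The order of the levels shifted between libraries. By day Atf4 was highest, at the 94.8th percentile of the 9581 genes with FPKM of at least 1, followed by Atf5, Ddit3, Xbp1, Herpud1, Atf6, Ppp1r15a, Eif2ak3, Ern1 and Trib3. By night Ddit3 came first, at the 96.0th percentile, ahead of Xbp1 and Atf4, then Herpud1, Ppp1r15a, Atf5, Atf6, Eif2ak3, Trib3 and Ern1. In the mixed tissues Atf4 led again, at the 97.2nd percentile, and Ddit3 was the fifth. Between neighbours in these orders, counting bounds overlapped for 6 of 9 pairs by day, 7 of 9 by night and 5 of 9 in the mixed tissues. The bounds of Ddit3 (82.1 to 98.5 FPKM), Xbp1 (71.1 to 86.4) and Atf4 (70.7 to 85.9) by night are such a case. The FPKM ratio of Ddit3 to Atf4 was 0.44 by day, 1.15 by night and 0.19 in the mixed tissues. Ppp1r15a stood at 0.60 times the level of Ppp1r15b, the constitutive eIF2 phosphatase subunit, by day, at 2.37 times by night and at 0.99 times in the mixed tissues (a pair chosen after its values were seen, as was the one before).

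**Figure D2:**
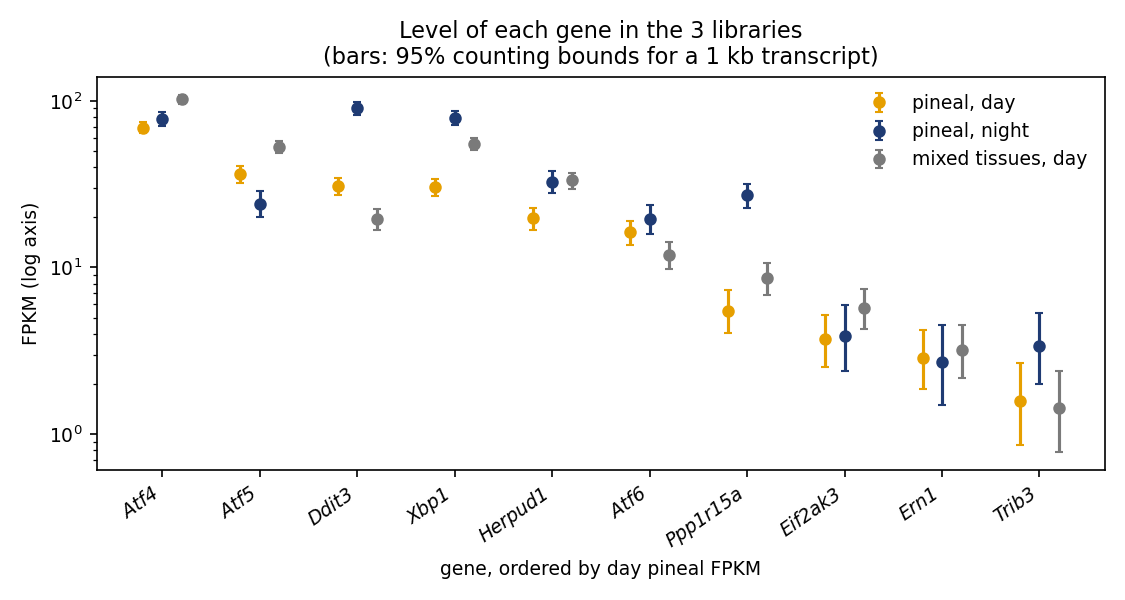
FPKM on a log axis for the 10 genes, ordered by their day pineal level, in the day pineal, night pineal and mixed-tissue libraries (1 each), with 95% counting bounds for a 1 kb transcript. The night points of Ddit3 (90.0), Xbp1 (78.5) and Ppp1r15a (27.1) stand above both other libraries, as do, by smaller margins, those of Atf6 (19.5) and Trib3 (3.37).

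Against the mixed tissues the day pineal library had 0 of the 10 genes past 2-fold in either direction, beside 8.32% of 11934 genes on the higher and 28.9% on the lower side. Their log2 ratios ran from -0.84 (Xbp1) to 0.63 (Ddit3), with a median of -0.52 beside -0.27 for all genes. By night 2 of the 10 exceeded the pool by more than 2-fold, Ddit3 (4.61-fold in FPKM, log2 2.15) and Ppp1r15a (3.15-fold, log2 1.55), beside 8.99% of 11951 genes. Atf5 was 2.19-fold below it (log2 -1.10), beside 31.2% of genes lower. Xbp1, which was 1.82-fold below the pool by day, stood 1.43-fold above it by night (log2 0.50), and Herpud1 was at -0.03. Both pineal libraries were set against the same mixed library, and in the night comparison time of day and tissue differ together. When each comparison was centred on the median of all genes, a shift of 0.36 by night and 0.27 by day, Trib3 (log2 1.21) and Atf6 (log2 1.04) also passed 2-fold by night and Atf5 (log2 -0.74) no longer did. With that centring, 1683 of all 11951 genes were at least 2-fold higher by night, in place of 1074, and 2800 lower, in place of 3724. By day 1432 of 11934 were higher, in place of 993, and 2763 lower, in place of 3445. The centring thus moved genes past 2-fold across the whole comparison, not among the 10 alone.

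**Figure D3:**
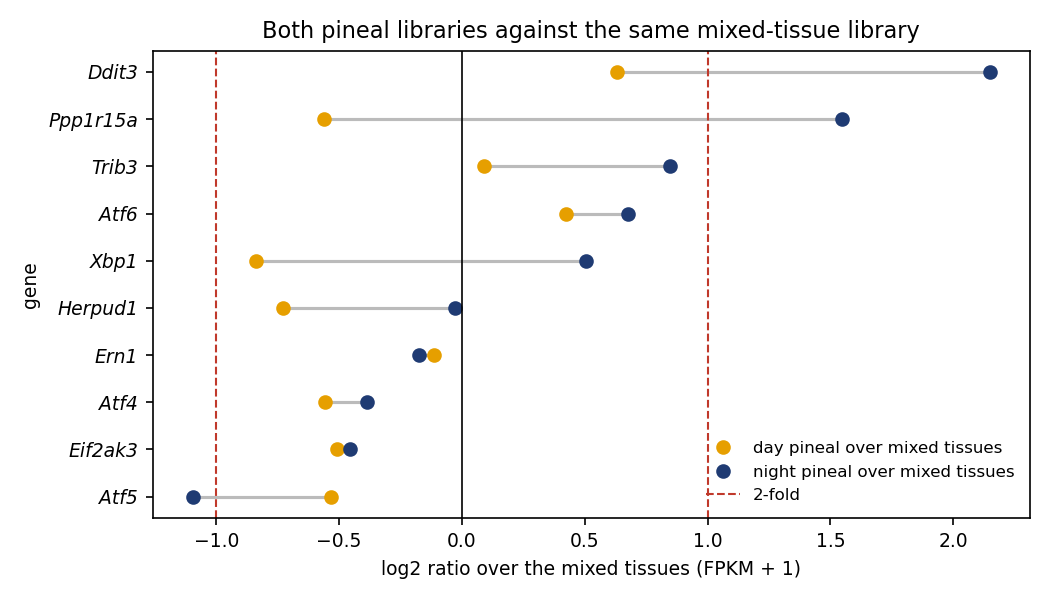
Log2 ratios of FPKM + 1 of the day and night pineal libraries over the same mixed-tissue library, joined by a line for each of the 10 genes. The day points lie between -0.84 and 0.63, inside the dashed 2-fold lines, and the night points of Ddit3 (2.15), Ppp1r15a (1.55) and Atf5 (-1.10) lie outside.

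Pathway genes were taken from 6 lists of 105 genes, of which 96 were in the table. By night 5 of the 84 compared were at least 2-fold higher and 1 was lower (5.95% and 1.19%, beside 4.18% and 2.11% of all genes), with a median log2 ratio of -0.01. These shares are near the background.

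Of 20 ER chaperones and folding enzymes compared, 1 was at least 2-fold higher by night, 0 were lower and the median was 0.11. The one was Hspa5, the chaperone that binds the sensors at rest and a target of Atf6 and Xbp1, at 77.8 FPKM by day, 234 by night and 147 in the mixed tissues (log2 1.58, bounds 1.46 to 1.73). Its night level was 3.01 times that by day, rank 183 of 9826. Of the most abundant members, the calcium-binding chaperone Calr stood at 244 FPKM by day and 267 by night, Hsp90b1 (GRP94) at 150 and 187, and the disulfide isomerase Pdia3 at 145 and 156. Hspa5 thus stood apart from Calr, Hsp90b1 and Pdia3, which lay within 1.25-fold. Of the 20 genes compared, 16 had a night over day log2 ratio above 0 and 4 below. Beside the median of all genes compared (-0.11), 17 of the 20 lay above. Fkbp2 of this list, close to 0 at log2 0.0014, ranked 3735 of all 9826 genes from the top. Sdf2l1, a co-chaperone complex protein, was at 4.59 and 8.68 (log2 0.79). Pdia6 was listed at 0 in all 3 libraries, as were Ufd1l and Eif2ak2 of the other lists, which may be failed estimates.

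None of 12 ER-associated degradation genes was 2-fold apart by night (median -0.02). Vcp, the ATPase that extracts proteins from the membrane, was at 128 FPKM by day and 119 by night, Ubxn4 at 43.0 and 39.4 and the lectin Os9 at 42.0 and 39.3. Edem3 had the highest ratio of this list, at 7.57 and 13.4 (log2 0.75). Of the 12, 5 had log2 ratios above 0 and 7 below. Likewise 0 of 10 sensor relatives and partners were 2-fold apart by night (median -0.10). Among them were Tmbim6, an ER membrane inhibitor of cell death (227 and 174), and the translocon subunit Sec61b (38.8 and 44.5). Creb3, a membrane-bound transcription factor, was at 36.9 and 55.3 (log2 0.57). Of 12 genes for eIF2, its exchange factor eIF2B, its kinases and its phosphatase, 0 were 2-fold apart (median -0.14). Eif2ak2, also an eIF2 kinase, was listed at 0 and is left out of the order that follows. Of the other eIF2 kinases in the table, Eif2ak1 (HRI) had the highest FPKM by day, 22.9. Eif2ak4 (GCN2, which senses uncharged tRNA) was at 10.5 and Eif2ak3 at 3.70. By night Eif2ak1, Eif2ak4 and Eif2ak3 stood at 25.7, 6.70 and 3.88. None of 6 cell death genes compared was 2-fold apart (median -0.16), with Trib2 at 6.80 and 3.99, Bak1 at 6.13 and 4.71 and Bax at 4.34 and 2.68. Of the 6, 2 had log2 ratios above 0 and 4 below. The highest was Bcl2l11, at 0.550 and 1.51 FPKM, both low values (log2 0.70, and 2.75-fold in FPKM).

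Of 24 genes known as targets of ATF4 and its partners, 4 were at least 2-fold higher by night, 1 was lower and 19 lay within 2-fold (median -0.07). Gdf15, a secreted stress cytokine, stood at 7.43 FPKM by day, 42.7 by night and 1.52 in the mixed tissues (log2 2.37 for night over day, bounds 2.12 to 2.94). Mthfd2, a mitochondrial folate enzyme, was at 3.32, 12.3 and 3.32 (log2 1.63), the transcription factor Cebpb at 2.01, 6.17 and 16.3 (log2 1.25) and Eif4ebp1, a repressor of cap-dependent translation, at 2.42, 6.62 and 7.21 (log2 1.15). Gdf15 and Mthfd2 were highest in the night library, and Cebpb and Eif4ebp1 in the mixed tissues. Gadd45a, a growth arrest protein, was the lower one, at 13.2 by day, 3.60 by night and 14.8 in the mixed tissues (log2 -1.62). The amino acid and tRNA enzymes of the list that were most abundant by day lay on the other side of 0, with Aars (alanyl-tRNA synthetase) at 111 and 79.3 (log2 -0.49), Asns (asparagine synthetase) at 74.1 and 63.5 (log2 -0.22) and Psph (the last step of serine synthesis) at 63.9 and 47.8 (log2 -0.41). Ddit4, an inhibitor of mTOR signalling, and the amino acid transporter gene Slc7a5 stayed just under the fold on the FPKM + 1 scale, at 2.07-fold and 2.02-fold in FPKM (both chosen after their values were seen). Nupr1, chosen likewise, was low at 1.05 FPKM by day and 2.51 by night. That was 2.38-fold in FPKM but log2 0.77 on the FPKM + 1 scale.

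**Figure D4:**
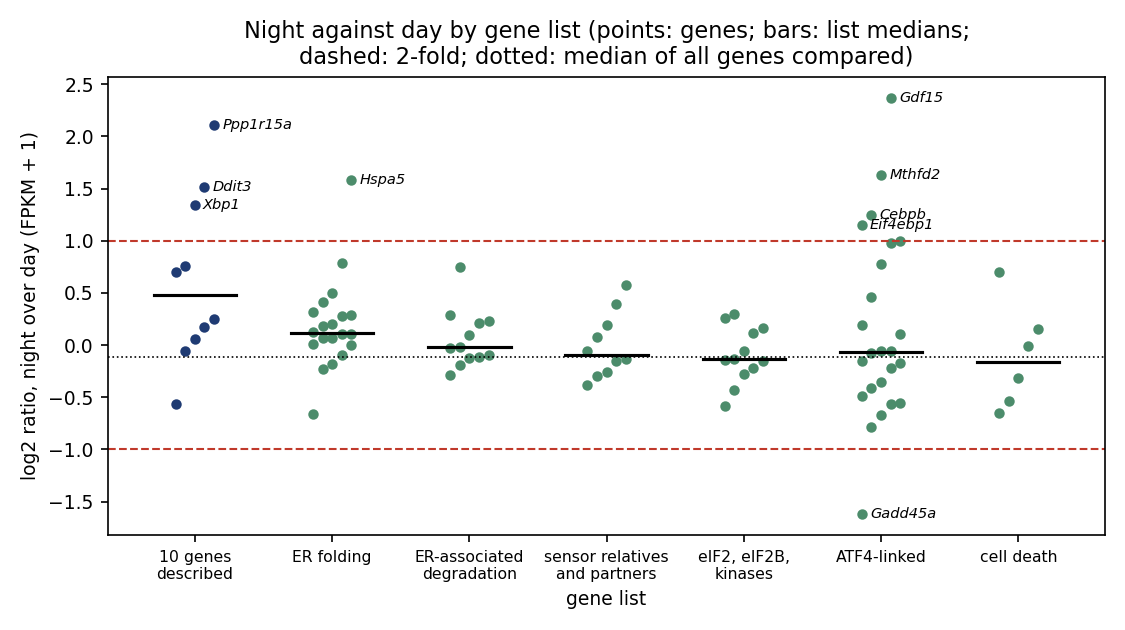
Log2 ratios of FPKM + 1, night over day pineal library, with 1 point per gene compared, for the 10 genes and the 6 pathway lists. Bars are list medians, from 0.48 for the 10 genes to -0.16 for the cell death list, and the genes past the dashed 2-fold lines are named.

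The same lists were set against the mixed tissues. By day 7 of 90 passed 2-fold on the higher side and 15 on the lower side (7.78% and 16.7%, beside 8.32% and 28.9% of all genes). Psph (log2 2.96), Cars (cysteinyl-tRNA synthetase, 2.22), Asns (2.19) and Eif2b3 (an eIF2B subunit, 1.64) were higher in the gland. On the other side stood Cth (a cysteine synthesis enzyme, -4.60), Creb3l3 (an ER-bound factor of liver and intestine, listed at 0 in both pineal libraries and at 14.7 FPKM in the pool) and Psat1 (serine synthesis, -2.97). Psph and Psat1, which act in the same pathway, were thus on opposite sides of the pool. Of 20 folding genes 0 were higher and 4 lower, including Sdf2l1 (-1.22) and Pdia4 (-1.11).

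Night pineal values against the pool gave 7 higher and 15 lower of 90 (7.78% and 16.7%, beside 8.99% and 31.2% of all genes). Gdf15 had the highest ratio in these lists (log2 4.12), and Psph followed (2.54). The lowest were Cth (-4.79), Creb3l3 and Psat1 (-3.03). Hspa5 was 0.67 above the pool by night and -0.90 by day, the pattern of sign seen for Xbp1.

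By a Euclidean distance over log2(FPKM + 1) in the 3 libraries, the genes nearest to Ddit3 were Dnm2 (0.25), Osbp2 (0.30) and Pqlc1 (0.35). Those nearest to Xbp1 were Dnaja1 (0.39), a heat shock co-chaperone, Eif1b (0.42) and Ncald (0.50). For Ppp1r15a they were Srxn1 (0.33), Ankrd52 (0.43) and RGD1306526 (0.45). With 3 libraries many genes lie close by, and the distances only describe them.

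The labels were checked against marker genes. All 10 pinealocyte markers were at least 2-fold above the pool in both pineal libraries. The liver marker Alb, the pituitary markers Gh1, Prl and Cga and the 3 lung markers were listed at 0 in the gland. Other markers of liver and pituitary were not. The liver marker Ttr stood at 516 FPKM by day, 607 by night and 685 in the pool, and Serpina1 at 6.41, 2.52 and 295. The pituitary marker Pomc was above 0 in both pineal libraries, at 2.22 FPKM by night, beside 449 in the pool. Between the pineal libraries the summed FPKM of astrocyte markers was 127 by day and 91.5 by night, of fibroblast and meningeal markers 261 and 193, of oligodendrocyte markers 30.1 and 16.1, of mural markers 60.4 and 50.04, and of microglia markers 62.5 and 59.2. Endothelial markers summed to 24.8 and 21.5, with Cldn5 listed at 0 in all 3 libraries, erythroid markers to 386 and 357 and neuron markers to 1336 and 1383. Of the neuron sum, Snap25 made 1213 and 1217, Syt1 105 and 131 and Map2 17.3 and 34.4. Nefl, Nefm and Tubb3 were each under 1 FPKM in both pineal libraries, beside 154, 143 and 108 in the pool. Leukocyte markers summed to 15.6 and 237, of which Fcer1a alone made 12.9 and 235, with Cd3e and Cpa3 listed at 0 by night. Of the 5 astrocyte and 7 fibroblast markers compared, 0 were 2-fold apart on the FPKM + 1 scale, but 5 and 6 of them had log2 ratios below 0. The median of all genes compared was itself below 0, at log2 -0.11. Above that median lay 0 of the 5 and 1 of the 7. In FPKM, Aqp4 was 2.02-fold and Gfap 1.98-fold lower by night. Of the 3 oligodendrocyte markers compared, 1 was at least 2-fold lower by night, Cnp (18.2 FPKM by day and 7.93 by night, log2 -1.10). The part of these shifts in the results above was not tested. In bulk RNA fewer cells of a type and less RNA per cell cannot be told apart.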

How the data were processed

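Poly(A) RNA of 3 libraries, 1 per group, was sequenced in paired reads of 51 bases, per the labels' protocols. The authors deposited FPKM per RefSeq entry, as the file headers name the unit. The submitters' processing notes name TopHat 1.3.1, Cufflinks 1.2.0 and the rn4 build, while options, filters and the handling of shared reads were not given in the sources used here. FPKM is scaled to each library, so abundant transcripts lower the others. Starts are counted from 1.

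Entries of 1 symbol were summed, giving 16629 genes and regions from 17089 entries. Log2 ratios used a pseudocount of 1 and genes with FPKM of at least 1 in 1 of the 2 libraries, in Python 3.11.15 with pandas 2.3.3 and SciPy 1.17.1. The calling step was tested on simulated data with equal depth in both libraries, counting noise alone and planted changes larger than 2-fold. That simulation left out genes of low FPKM and differences between libraries, so it does not show how reliable the calls here are. Depth came from 1337 single-exon receptor models, and counting bounds are exact Poisson or Clopper-Pearson.

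The members, lists and motifs were chosen with earlier results of these data known. Named from the lists were genes at least 2-fold apart by night, the 3 of highest day FPKM, and the 2 highest and 2 lowest against the pool. Alternatives were other pseudocounts and filters, centring, and the highest entry alone. One leukocyte marker is not reported here.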

Additional observations from a re-analysis of the deposited data

How the results depend on the processing

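The count of 3 genes higher by night than by day among the 10 was 3 or 4 under 6 alternatives, and 0 were lower in each. By night against the mixed tissues, centring gave 4 higher and 0 lower, and a pseudocount of 5 gave 0 lower, in place of 2 and 1. Over all genes in that comparison, centring gave 1683 higher in place of 1074. In the pathway lists, the 5 higher by night than by day became 9 with a pseudocount of 0.1 and 3 with one of 5. The 15 lower than the pool by day became 7 with a pseudocount of 5 and 6 with centring, and the 15 lower by night became 8 under each of these. Counts over all genes fell too: 3445 lower than the pool by day became 1742 with a pseudocount of 5 and 2763 with centring. By night 3724 became 1871 and 2800. A larger pseudocount shrinks ratios by construction. Over all genes compared, night against day, a pseudocount of 0.1 gave 533 higher and 518 lower and one of 5 gave 231 and 64, in place of 411 and 207. No ratio past 2-fold among the 10 changed sign. No paired analysis was possible because each group has 1 library. Depth limits Trib3, Ern1 and Eif2ak3 most.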
